A study of Homo sapiens with 18 samples.

Results

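Antisense transcripts are long RNAs copied from the strand opposite to a protein-coding gene, and those that carry the symbol of that gene followed by -AS1 were taken as the subject here. A gene was included if its array row had exactly 1 symbol in the probe annotation, if that symbol ended in -AS1, and if its mean over all 18 arrays was at least 4.5 on the log2 scale. Of 741 -AS1 genes among the 22392 genes measured, 101 met this rule, and for 7 of them several rows existed, of which the one with the highest mean was used. The means of the 101 transcripts lay between 4.53 and 7.86 with a median of 5.03. RefSeq (GRCh38.p14) lists 99 of them as lncRNA and 1 as antisense RNA, and it lists HNRNPU-AS1 only as an older name of HNRNPU itself.

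The transcripts were selected on their mean level over all arrays, so their levels are a description. The 3 transcripts just above the threshold were ST7-AS1 at 4.53, ZNF22-AS1 at 4.53 and STPG3-AS1 at 4.54, and the 3 just below it were NAPA-AS1 at 4.48, CCNT2-AS1 at 4.47 and GCC2-AS1 at 4.46. Without the axis arrays 100 of the 101 would have passed. The exception was NOP14-AS1, whose mean was 5.13 in the axis and 4.43 over the other 15 arrays, so the rule itself favoured a high axis value for this transcript.

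PNT1A, an SV40-immortalised human prostate epithelial line of normal origin, was irradiated in flasks inside a phantom shaped like a human torso, neck and head. Axis cells received 70 Gy as 7 consecutive fractions of 10 Gy, and the flasks of the 4 peripheral groups lay at the position of the intestine (15 cm from the axis), the lung (35 cm), the thyroid (52 cm) or the brain (74 cm). Control cells are labelled untreated and were described by the study as sham-irradiated, and RNA was collected 24 h after the cells had been replated. Each of the 6 groups had 3 arrays, described as biological repeats, of 1 cell line, so the organ names stand for positions in the phantom and not for cell types.

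An antisense RNA may start beside the promoter of its partner and be transcribed away from it, or may lie inside or across the partner and overlap its messenger RNA. Well-studied antisense RNAs can act on chromatin, splicing or stability of the partner, whereas others share only the open chromatin of a common start region. For most of the transcripts described here no function is established. A transcript and the gene named in its symbol, called the sense gene, can therefore change together, apart, or independently of each other.

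RefSeq starts were known for both partners of 77 pairs, and all 77 lay on opposite strands. In 33 pairs the nearest starts were within 1000 bases, with the antisense start upstream of the sense start in 20 and downstream of it in 13, and in 44 pairs they were farther apart. By gene span, 31 transcripts were nested in their sense gene or the reverse, 49 overlapped it in part, 20 lay apart, and 1 was not listed. The array annotation gave a measured sense gene for 91 transcripts. For 6 others the sense gene stood only in rows with several symbols, and for 4 it was not analysed. The sources used here name different labelling kits, so whether overlapping partners were kept apart by strand is not settled.

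Start regions of 3 pairs are shown because the results below turn on them. Each is the 300-base RefSeq window from 250 bases before to 50 bases after the antisense start, on the strand of the antisense transcript, and capitals mark bases that are also inside the same window of the sense gene. L3MBTL2-AS1 has its start at chr22:41217578-41217877 (minus strand), 12315 bases downstream of the nearest L3MBTL2 start and inside that gene, so no base is shared. WNT5A-AS1 (chr3:55487368-55487667, plus strand) begins 312 bases upstream of the nearest WNT5A start, and 189 bases are shared. URB1-AS1 (chr21:32392883-32393182, plus strand) begins 121 bases upstream of URB1, with 220 shared bases.
L3MBTL2-AS1: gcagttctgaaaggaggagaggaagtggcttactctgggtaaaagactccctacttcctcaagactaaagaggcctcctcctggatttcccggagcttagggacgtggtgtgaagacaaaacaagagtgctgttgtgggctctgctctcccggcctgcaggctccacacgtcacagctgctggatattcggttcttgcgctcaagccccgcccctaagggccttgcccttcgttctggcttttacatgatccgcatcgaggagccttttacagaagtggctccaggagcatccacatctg
WNT5A-AS1: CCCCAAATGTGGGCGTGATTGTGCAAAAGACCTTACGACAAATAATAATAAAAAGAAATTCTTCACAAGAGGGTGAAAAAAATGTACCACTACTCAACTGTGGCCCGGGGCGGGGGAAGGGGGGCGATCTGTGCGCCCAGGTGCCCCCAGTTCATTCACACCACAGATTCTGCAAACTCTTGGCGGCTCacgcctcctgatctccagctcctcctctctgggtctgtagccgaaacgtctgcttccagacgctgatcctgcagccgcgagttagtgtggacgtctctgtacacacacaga
URB1-AS1: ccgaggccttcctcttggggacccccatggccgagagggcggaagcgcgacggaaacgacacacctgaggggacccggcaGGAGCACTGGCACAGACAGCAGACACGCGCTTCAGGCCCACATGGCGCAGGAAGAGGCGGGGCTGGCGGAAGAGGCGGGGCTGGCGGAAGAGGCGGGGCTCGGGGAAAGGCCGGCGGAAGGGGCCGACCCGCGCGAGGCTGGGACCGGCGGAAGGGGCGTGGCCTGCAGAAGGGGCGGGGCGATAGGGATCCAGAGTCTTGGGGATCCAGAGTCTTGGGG

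Array medians were 4.07 to 4.22, and arrays of the same group correlated at 0.992 or more. Differences were fitted with limma on all 22392 genes, and a transcript was called where the Benjamini-Hochberg adjusted p was below 0.05 and the fold change above 1.5, which are the thresholds of the study. Over all genes, fold changes against control had a median standard error of 0.10 on the log2 scale. Of 7 epithelial markers 2 were called lower in the axis (summed unlogged level 216 to 244 in axis arrays and 304 to 314 in control arrays), and of 5 mesenchymal markers 4 were called lower (632 to 721 in axis arrays and 1323 to 1363 in control arrays). Keratin 18, the highest of the 7 epithelial markers and not among the 2 called, averaged 6.41 in axis cells and 6.83 in control cells. The lowest, keratin 14, was at 3.60 in axis cells and 3.61 in control cells. Means of the 5 mesenchymal markers were 4.66 to 8.11 in axis cells and 6.74 to 8.72 in control cells. The defining immune marker PTPRC was at 2.43 in axis cells and 2.47 in control cells. The part of these marker differences in the results below was not tested. Less RNA per cell of a given state and fewer cells of that state cannot be told apart in bulk RNA.

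Cells located in the axis differed from control cells in 8 of the 101 transcripts. L3MBTL2-AS1, MID1IP1-AS1 and NOP14-AS1 were higher in the axis, and WNT5A-AS1, HNRNPU-AS1, LOXL2-AS1, AGAP2-AS1 and DLGAP1-AS1 were lower. The 3 higher transcripts compare with 4.39% of all genes and 7.27% of the 9959 genes at or above the same level, and the 5 lower ones with 2.60% and 5.35%. As shares of the 101 these were 2.97% higher, under both backgrounds, and 4.95% lower, between the backgrounds. NOP14-AS1 had to be high in the axis to be included, and without it 2 of 100 transcripts were called higher and 5 lower. The median log2 fold change of the 101 transcripts was -0.10, against -0.0049 for genes at or above the threshold and 0.0070 for all genes, and 34 of the 101 were positive.

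Against the 12 peripheral arrays, which share the axis arrays with the comparison above, 8 transcripts were again called. L3MBTL2-AS1, ZNF790-AS1, NOP14-AS1, MID1IP1-AS1 and EPB41L4A-AS1 were higher in the axis, and WNT5A-AS1, HNRNPU-AS1 and AGAP2-AS1 were lower. Without NOP14-AS1, 4 of 100 were higher and 3 lower. The backgrounds were 4.85% of all genes higher and 2.27% lower, and 8.15% and 4.73% of genes at or above the level threshold. In all, 10 transcripts were called in at least 1 of these comparisons. Against the control arrays alone, axis arrays were all higher in 9 transcripts and all lower in 28. No overlap in 1 direction or the other was shown by 33.8% of all genes and 54.7% of genes at or above the level threshold. Against the 12 peripheral arrays these counts were 8 and 12, with 20.1% and 37.6% of genes. Axis arrays lay above all 15 other arrays in 6 transcripts and below all of them in 11, with 19.2% and 36.2% of genes. NOP14-AS1, favoured by the rule of inclusion, was among the higher ones each time.

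**Figure D1:**
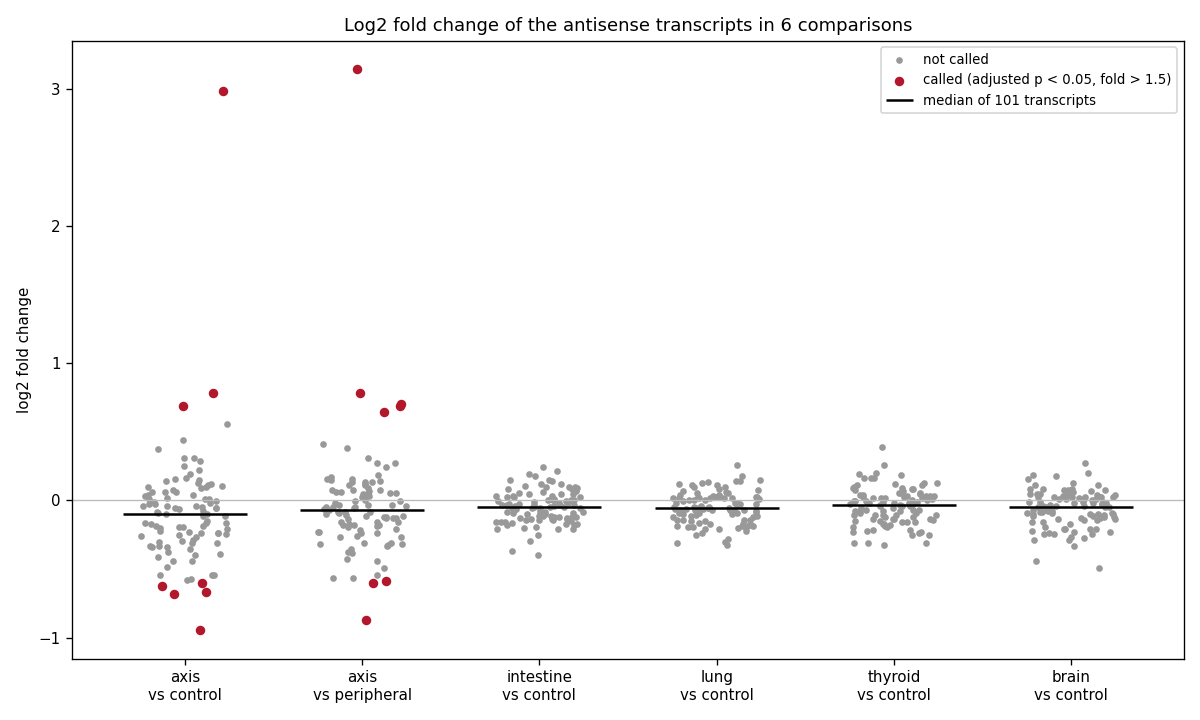
Log2 fold change (vertical axis) of each of the 101 antisense transcripts in the 2 axis comparisons and in the comparison of each peripheral location with control. Red points passed an adjusted p of 0.05 and a fold of 1.5, and black lines are medians. Called points stand only in the axis columns, with L3MBTL2-AS1 at 2.98 and 3.15 above all others.

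Other classes of non-coding RNA, and the sense genes, gave the following counts for the axis against control. For comparison, 4.39% of all genes were called higher and 2.60% lower, and 7.27% and 5.35% of genes at or above the level threshold. Of 640 -AS1 genes below the level threshold, 3 were called higher and 0 lower, with a median log2 fold change of -0.0033. Of 54 LINC genes at or above the threshold, 3 were higher and 7 lower, with a median of -0.07. Of 15 genes with other antisense or intronic symbols, 0 were higher and 2 lower, with a median of -0.21. The 91 sense genes had 3 higher, 6 lower and a median of 0.0096. None of these counts was tested against that of the 101 transcripts.

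L3MBTL2-AS1 stood far above the rest. It is a lncRNA inside L3MBTL2, a gene for a chromatin protein of the Polycomb family. Its log2 value was 7.68, 7.50 and 7.76 in the axis arrays, between 4.20 and 4.77 with a median of 4.55 in the 12 peripheral arrays, and 4.76, 4.85 and 4.39 in the control arrays. Every axis array lay more than 2 log2 units above every other array. The rise was 7.90-fold against control (log2 fold change 2.98 ± 0.14, SE, adjusted p = 1.33e-11) and 8.86-fold against the peripheral locations (3.15 ± 0.11, SE, adjusted p = 1.25e-13).

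L3MBTL2 itself did not follow. It had 6.68, 6.66 and 6.47 in the axis arrays against 6.73, 6.75 and 6.76 in the control arrays. The log2 fold change was -0.14 with a 95% confidence interval of -0.38 to 0.09 (adjusted p = 0.475), and against the peripheral locations it was -0.03 (-0.21 to 0.16). The genes on either side were also not called in the axis against control: XPNPEP3, a mitochondrial aminopeptidase, had a log2 fold change of -0.12, the histone acetyltransferase gene EP300 0.11, CHADL 0.20 and RANGAP1, the activator of the nuclear transport GTPase Ran, 0.04. Of the genes listed at this locus, the antisense transcript was the one called.

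MID1IP1-AS1 and its sense gene were both called higher in the axis. MID1IP1 encodes a regulator of acetyl-CoA carboxylase in fatty acid synthesis. The antisense transcript had 5.41, 5.37 and 5.41 in the axis arrays, 4.501 to 4.97 (median 4.70) in the peripheral arrays, and 4.54, 4.51 and 4.78 in the control arrays. Its log2 fold change was 0.78 ± 0.09 (SE, adjusted p = 3.16e-06) against control, a 1.72-fold rise. MID1IP1 had 6.26, 6.32 and 6.33 in the axis arrays against 5.65, 5.57 and 5.69 in the control arrays, with a log2 fold change of 0.66 ± 0.10 (SE, adjusted p = 7.25e-05). The axis arrays did not overlap with the others for either gene, whereas the neighbours OTC and TSPAN7 differed by 0.08 and 0.01 and were not called.

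NOP14-AS1 overlaps NOP14, which encodes a nucleolar protein needed to build the small ribosomal subunit. It had 4.95, 5.38 and 5.05 in the axis arrays, 4.27 to 4.60 (median 4.44) in the peripheral arrays, and 4.49, 4.46 and 4.36 in the control arrays. The log2 fold change against control was 0.69 ± 0.09 (SE, adjusted p = 1.34e-05), and without axis replicate 2 it was 0.56, below the fold threshold. Its axis arrays lay above all others. Without the axis arrays its mean was below the level threshold, so the rule of inclusion favoured this rise. NOP14 differed by 0.23 ± 0.09 (SE, adjusted p = 0.0902) and was not called.

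ZNF790-AS1 and EPB41L4A-AS1 were called higher in the axis against the peripheral locations and not against control. ZNF790-AS1, the partner of a zinc finger gene, had 5.99, 6.26 and 5.75 in the axis arrays, 5.01 to 5.56 (median 5.20) in the peripheral arrays, and 5.26, 5.52 and 5.90 in the control arrays. Control replicate 3 lay inside the axis range. The log2 fold change was 0.78 ± 0.12 (SE, adjusted p = 4.35e-05) against the peripheral locations and 0.44 ± 0.15 (SE, adjusted p = 0.0460) against control, where it was called, at 0.61, without control replicate 3. ZNF790 had log2 fold changes of 0.06 and 0.0042 in the same comparisons and was called in neither. The nearest flanking genes, LOC728485 and ZNF345, differed from control by 0.0002 and 0.01 and were not called. Beyond them, the zinc finger genes ZNF850 and ZNF829 were called higher against control by 0.74 and 0.75.

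EPB41L4A-AS1 is nested in EPB41L4A, a gene of the band 4.1 family of proteins at the cell membrane, and also hosts the small nucleolar RNA SNORA13. It had 6.74, 6.77 and 7.14 in the axis arrays, 6.12 to 6.48 (median 6.22) in the peripheral arrays, and 6.32, 6.23 and 6.43 in the control arrays, with no overlap. Its log2 fold change was 0.64 ± 0.08 (SE, adjusted p = 6.12e-06) against the peripheral locations and 0.55 ± 0.10 (SE, adjusted p = 6.02e-04) against control, where it stayed just under the 1.5-fold threshold. Neither side of that threshold was stable: against the peripheral locations the log2 fold change was 0.52 without axis replicate 3 and 0.55 after quantile normalisation, both below it, and against control it was 0.61, 0.63 and 0.61 without control replicate 3, axis replicate 1 and axis replicate 2, all above it.

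**Figure D2:**
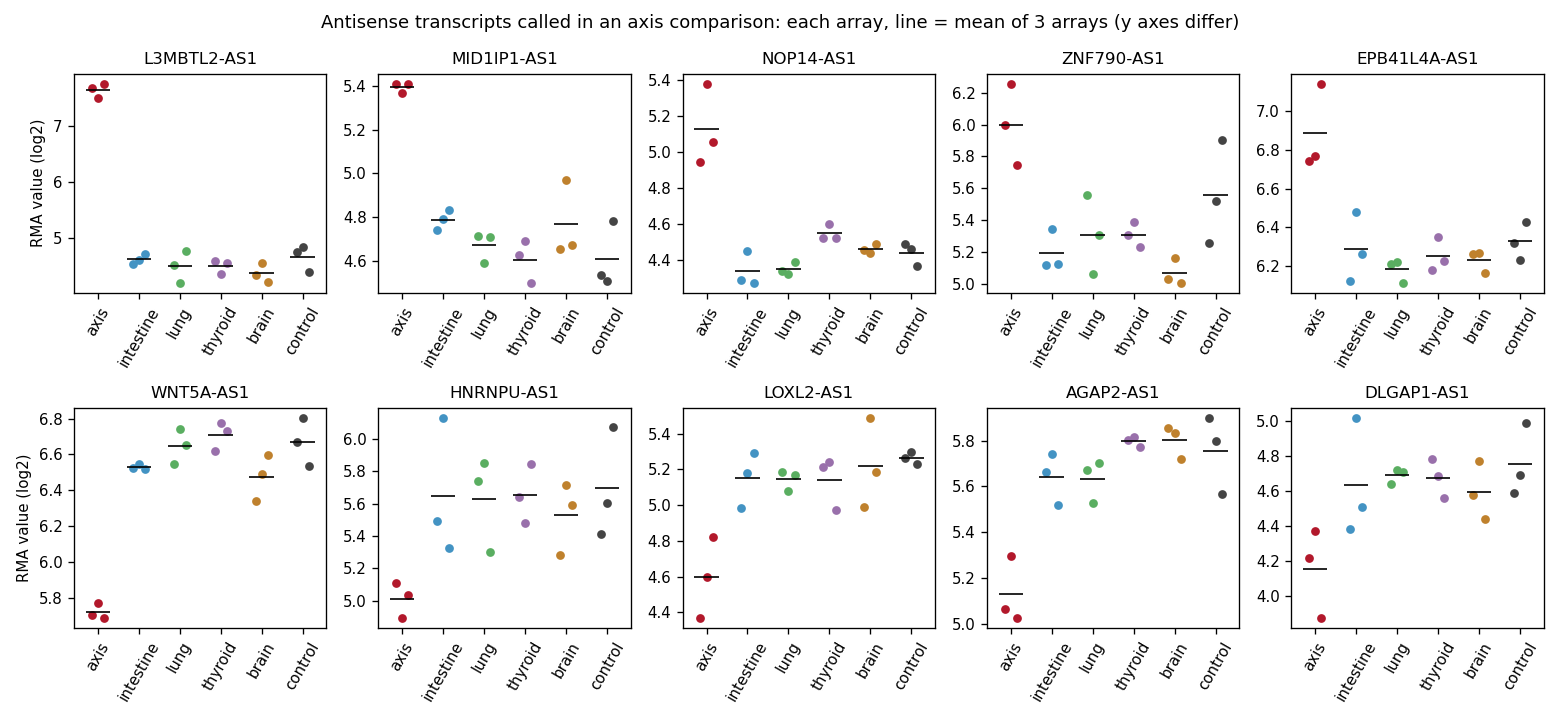
Log2 RMA value (vertical axis, scales differ) of the 10 antisense transcripts called in an axis comparison, in each array by location. Points are arrays and lines are means of 3 arrays. L3MBTL2-AS1 lay at 7.50 to 7.76 in the axis and below 5 elsewhere, and 1 control array of ZNF790-AS1 lay within its axis range.

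WNT5A-AS1 showed the largest fall among the 101 transcripts. WNT5A encodes a secreted Wnt ligand that signals mainly outside the beta-catenin route. The antisense transcript had 5.71, 5.77 and 5.69 in the axis arrays, 6.34 to 6.78 (median 6.57) in the peripheral arrays, and 6.67, 6.80 and 6.54 in the control arrays. It fell 1.93-fold against control (log2 fold change -0.95 ± 0.08, SE, adjusted p = 9.86e-08). WNT5A had 5.52, 5.41 and 5.28 in the axis arrays against 6.92, 7.05 and 7.05 in the control arrays and fell 3.04-fold (-1.60 ± 0.10, SE, adjusted p = 4.56e-10). The axis arrays of both genes lay below all others.

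LOXL2-AS1 is nested in LOXL2, which encodes a lysyl oxidase that crosslinks collagen. It had 4.37, 4.60 and 4.82 in the axis arrays, 4.98 to 5.49 (median 5.18) in the peripheral arrays, and 5.26, 5.30 and 5.23 in the control arrays. The log2 fold change against control was -0.67 ± 0.12 (SE, adjusted p = 5.01e-04), and without axis replicate 1 it was -0.55, below the fold threshold. The axis arrays lay below all others. LOXL2 fell 2.02-fold (-1.01 ± 0.09, SE, adjusted p = 6.25e-08), with 7.53, 7.59 and 7.42 in the axis arrays against 8.44, 8.61 and 8.53 in the control arrays. SLC25A37, a mitochondrial iron importer beyond the next gene, was also called lower, with a log2 fold change of -0.59.

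AGAP2-AS1, nested in the gene of an Arf GTPase-activating protein, had 5.07, 5.30 and 5.03 in the axis arrays, 5.52 to 5.86 (median 5.73) in the peripheral arrays, and 5.90, 5.80 and 5.57 in the control arrays. It fell by 0.63 ± 0.09 on the log2 scale (SE, adjusted p = 6.19e-05) against control, and its log2 fold change was -0.55 without control replicate 1 and -0.57 without axis replicate 3, both below the fold threshold. Against the peripheral locations it was -0.59, just past the threshold, and the call was lost with array weights and without any 1 of 6 arrays (axis replicates 1 and 3, intestine replicate 2, lung replicates 1 and 3, and brain replicate 1), at -0.54 to -0.58. The axis arrays did not overlap with the others. AGAP2 had a log2 fold change of 0.13 with an interval of -0.10 to 0.36 (adjusted p = 0.526). Of the neighbours, the cell cycle kinase gene CDK4 had -0.31 and OS9, TSPAN31 and B4GALNT1 had 0.11, 0.13 and -0.27, and none was called.

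HNRNPU-AS1 and DLGAP1-AS1 were the most variable of the called transcripts. HNRNPU encodes a nuclear RNA- and scaffold-binding protein, and HNRNPU-AS1 had 5.11, 4.90 and 5.03 in the axis arrays, 5.28 to 6.12 (median 5.62) in the peripheral arrays, and 5.41, 5.60 and 6.07 in the control arrays. Its log2 fold change was -0.68 ± 0.20 (SE, adjusted p = 0.0165) against control, with no overlap of the arrays, and the adjusted p was 0.112 without control replicate 3 and 0.0656 without axis replicate 2. Against the peripheral locations it was -0.60, and the fold threshold was missed without any 1 of 5 arrays (axis replicate 2, intestine replicate 2, lung replicate 2, thyroid replicate 3 and brain replicate 2), at -0.54 to -0.58. HNRNPU had -0.22 (adjusted p = 0.102). DLGAP1 encodes a postsynaptic scaffold protein and was not analysed, and DLGAP1-AS1 had 4.22, 4.37 and 3.88 in the axis arrays, 4.38 to 5.01 (median 4.66) in the peripheral arrays, and 4.59, 4.69 and 4.99 in the control arrays. The log2 fold change was -0.60 ± 0.15 (SE, adjusted p = 0.00654) against control and -0.49 ± 0.12 (SE, adjusted p = 0.00372) against the peripheral locations, where it was not called. Without control replicate 3 or axis replicate 3 the log2 fold change against control was -0.48 or -0.46, below the fold threshold. Its highest axis array lay just below its lowest peripheral array.

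By the adjusted p alone, a threshold passed by 20.4% of all genes and 37.1% of genes at or above the level threshold, 20 more transcripts differed between the axis and control by less than 1.5-fold. Of these 15 were lower and 5 higher in the axis. The lower ones included ZNF213-AS1 (log2 fold change -0.58), PRR34-AS1 (-0.57, with control arrays spread from 4.38 to 5.36), MBNL1-AS1 (-0.54), ARHGAP5-AS1 (-0.54) and TMEM147-AS1 (-0.54). The higher ones were EPB41L4A-AS1, ZNF790-AS1, PCNA-AS1 (0.37), SGO1-AS1 (0.31) and TRAF3IP2-AS1 (0.31). In all, 8 transcripts were higher and 20 lower at this threshold, against 1905 higher and 1787 lower of the 9959 genes at or above the level threshold. The other 73 did not pass.

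Values below the fold threshold were nevertheless tight for some of them. MBNL1-AS1, the partner of a splicing regulator gene, had 5.04, 5.06 and 5.09 in the axis arrays against 5.69, 5.64 and 5.497 in the control arrays. MBNL1 had a log2 fold change of -0.37 in the same comparison. PCNA-AS1, nested in the gene of the sliding clamp of DNA replication, had 8.09, 8.30 and 8.20 in the axis arrays against 7.73, 7.80 and 7.94 in the control arrays, and PCNA differed by 0.32 (adjusted p = 0.00210). Axis and control arrays did not overlap for either transcript.

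To ask whether a transcript and its sense gene changed unequally, the difference between their log2 values was taken in each array and compared between groups, with the adjusted p over all 690 -AS1 pairs with a measured sense gene. The levels of different probe sets are not comparable, so only the changes of this difference are given. Against control, 13 of the 91 pairs were called. In 4 the antisense transcript moved above its sense gene and in 9 below it, and over all 690 pairs 4.93% moved above and 4.78% below. As a whole 9.71% of the 690 pairs were called against control and 9.13% against the peripheral locations, where 6 of the 91 pairs moved above and 4 below (4.93% and 4.20% of all 690).

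**Figure D3:**
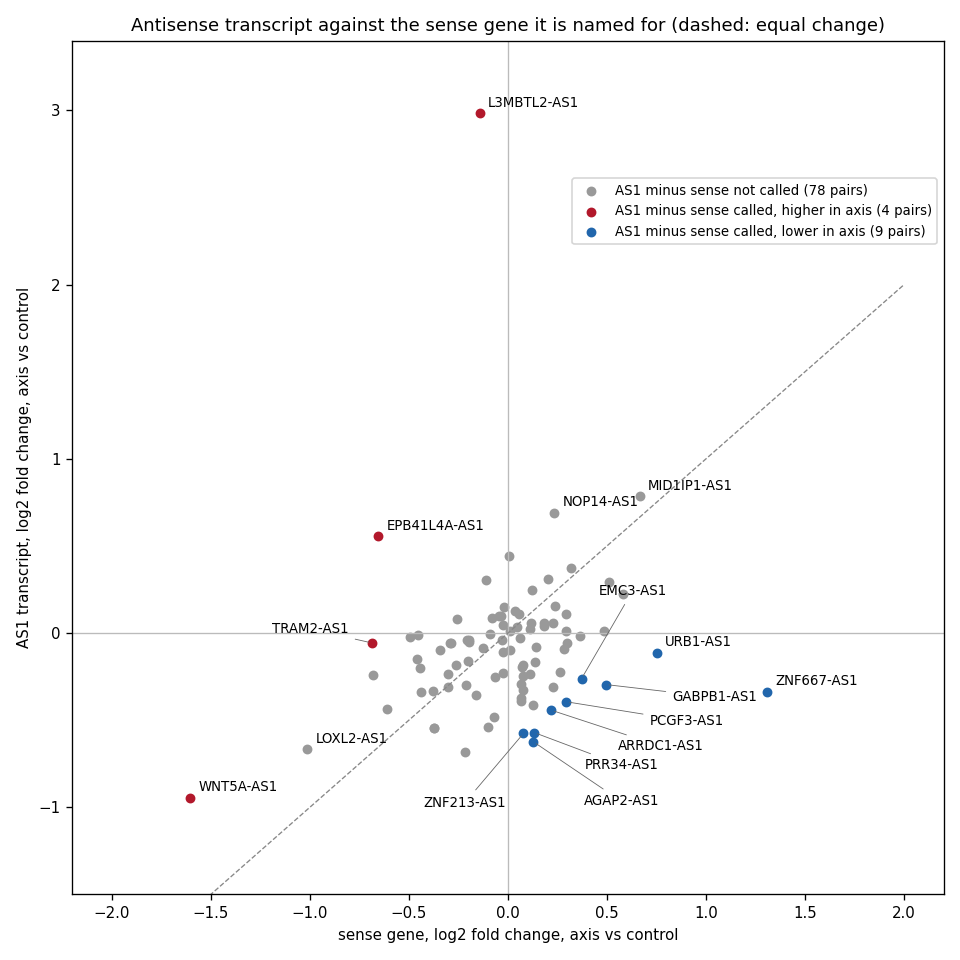
Log2 fold change of the antisense transcript (vertical axis) against that of its sense gene (horizontal axis), axis against control, for 91 pairs. The dashed line marks equal change, and coloured points are pairs whose difference was called. L3MBTL2-AS1 stands alone at the top with its sense gene near 0, ZNF667-AS1 and URB1-AS1 lie below the line with higher sense genes, and WNT5A is at the lower left with both partners lower.

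Both partners were called in 3 pairs, those of WNT5A, LOXL2 and MID1IP1, and in each they moved in the same direction. The WNT5A pair was nevertheless unequal: the sense gene fell further, and the antisense transcript gained 0.66 ± 0.13 relative to it on the log2 scale (SE, adjusted p = 4.15e-04). For 6 pairs the sense gene alone was called, and for 4 the antisense transcript alone (L3MBTL2-AS1, NOP14-AS1, AGAP2-AS1 and HNRNPU-AS1). Of these 4 pairs, the separation was called for L3MBTL2 and for AGAP2 (-0.75). By limma on the differences it was not called for NOP14 (0.46, adjusted p = 0.0137, below the fold threshold) or HNRNPU (-0.47, adjusted p = 0.0587). For these 2 pairs an unequal change was therefore not shown. AGAP2 averaged 3.92 in axis cells and 3.79 in control cells, below the array medians, where a fall is hard to see. NOP14-AS1 was favoured by the rule of inclusion. Since RefSeq gives HNRNPU-AS1 as a name of HNRNPU, its row may measure part of HNRNPU and not a separate antisense transcript. Neither partner was called in 78 pairs.

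ZNF667, a zinc finger gene, was the most strongly raised of the sense genes. It had 5.96, 5.99 and 5.99 in the axis arrays, 4.18 to 4.96 (median 4.59) in the peripheral arrays, and 4.43, 4.75 and 4.83 in the control arrays, a 2.47-fold rise (log2 fold change 1.31 ± 0.14, SE, adjusted p = 1.67e-06). ZNF667-AS1, which begins 529 bases upstream of it, had 6.73, 6.74 and 6.58 in the axis arrays, 6.85 to 7.18 (median 6.98) in the peripheral arrays, and 6.97, 7.12 and 6.97 in the control arrays. It differed by -0.34 ± 0.10 (SE, adjusted p = 0.0174), below the fold threshold but with no overlap with the other 15 arrays. The pair separated by -1.64 ± 0.14 (SE, adjusted p = 1.16e-10), the largest fall of an antisense transcript relative to its partner among the 91 pairs. The nearby zinc finger genes ZNF583, ZNF471 and ZFP28 differed by 0.24, 0.08 and 0.22 and were not called.

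URB1 and URB1-AS1 share most of the start region printed above. URB1 encodes a nucleolar protein of large ribosomal subunit assembly and had 7.20, 7.39 and 7.44 in the axis arrays, 6.31 to 6.73 (median 6.48) in the peripheral arrays, and 6.53, 6.54 and 6.71 in the control arrays. Its log2 fold change was 0.75 ± 0.08 (SE, adjusted p = 2.15e-06). URB1-AS1 had 5.05, 5.05 and 5.08 in the axis arrays against 5.14, 5.11 and 5.26 in the control arrays, a difference of -0.12 with an interval of -0.31 to 0.08 (adjusted p = 0.505). The pair separated by -0.87 ± 0.12 (SE, adjusted p = 3.62e-06).

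TRAM2, a gene of protein entry into the endoplasmic reticulum, fell while TRAM2-AS1, which begins 142 bases upstream, was not called. TRAM2 had 8.90, 9.05 and 8.77 in the axis arrays against 9.57, 9.59 and 9.63 in the control arrays, with a log2 fold change of -0.69 ± 0.07 (SE, adjusted p = 1.26e-06). TRAM2-AS1 had 5.38, 5.33 and 5.14 in the axis arrays against 5.34, 5.25 and 5.43 in the control arrays, a difference of -0.06 (interval -0.29 to 0.17). The pair separated by 0.63 ± 0.13 (SE, adjusted p = 7.47e-04). On the other side of TRAM2-AS1, LOC730101 and TMEM14A were called lower, with log2 fold changes of -0.68 and -0.59.

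EPB41L4A was the pair whose partners were called in opposite directions, against the peripheral locations. Without axis replicate 3 or after quantile normalisation the antisense transcript was not called there. The sense gene had 4.11, 4.16 and 4.13 in the axis arrays, 4.64 to 5.07 (median 4.82) in the peripheral arrays, and 4.67, 4.92 and 4.78 in the control arrays. Its log2 fold change was -0.73 against the peripheral locations and -0.65 ± 0.10 (SE, adjusted p = 8.88e-05) against control. The pair separated by 1.21 ± 0.14 (SE, adjusted p = 7.55e-08) against control and by 1.37 ± 0.11 (SE, adjusted p = 2.44e-11) against the peripheral locations, below the L3MBTL2 pair at 3.13 and 3.17 among pairs whose antisense transcript gained. The starts of the 2 genes lie 258751 bases apart.

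The remaining sense genes called without their partner were OIP5, needed for loading the centromeric histone, and STARD4, a sterol carrier. OIP5 had a log2 fold change of -0.68 (adjusted p = 0.00552) and OIP5-AS1 -0.24 (adjusted p = 0.175). Their separation of 0.61 ± 0.12 (SE, adjusted p = 2.42e-04) was called against the peripheral locations. STARD4 had -0.61 and STARD4-AS1 -0.44 (adjusted p = 0.00975), and this pair was not called as unequal. MAP3K14, the NF-kappa B-inducing kinase, was called only against the peripheral locations, at 0.61.

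In 6 further pairs the separation was called although neither partner was, with a negative log2 fold change of the antisense transcript and a positive one of the sense gene. They were GABPB1, a subunit of an ETS transcription factor (separation -0.79), PRR34 (-0.70), PCGF3, a Polycomb ring finger gene (-0.69), ARRDC1, an arrestin-domain gene (-0.66), ZNF213 (-0.65) and EMC3, a subunit of a membrane protein insertase (-0.63). GABPB1-AS1 had 5.11, 5.16 and 5.34 in the axis arrays against 5.42, 5.60 and 5.47 in the control arrays, while GABPB1 had 7.41, 7.28 and 7.43 in the axis arrays against 6.90, 6.59 and 7.15 in the control arrays. PCGF3-AS1 and PCGF3 differed by -0.40 and 0.29, and EMC3-AS1 and EMC3 by -0.26 and 0.37. By limma's adjusted p alone, the sense gene differed for GABPB1 (0.00589), PCGF3 (0.00624) and EMC3 (0.00571). It did not for ARRDC1 (0.0622), PRR34 (0.479) and ZNF213 (0.720), so a rise of these sense genes was not shown. PRR34 averaged 3.32 in axis cells and 3.19 in control cells, below the array medians. None of these 6 pairs was called against the peripheral locations.

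**Figure D4:**
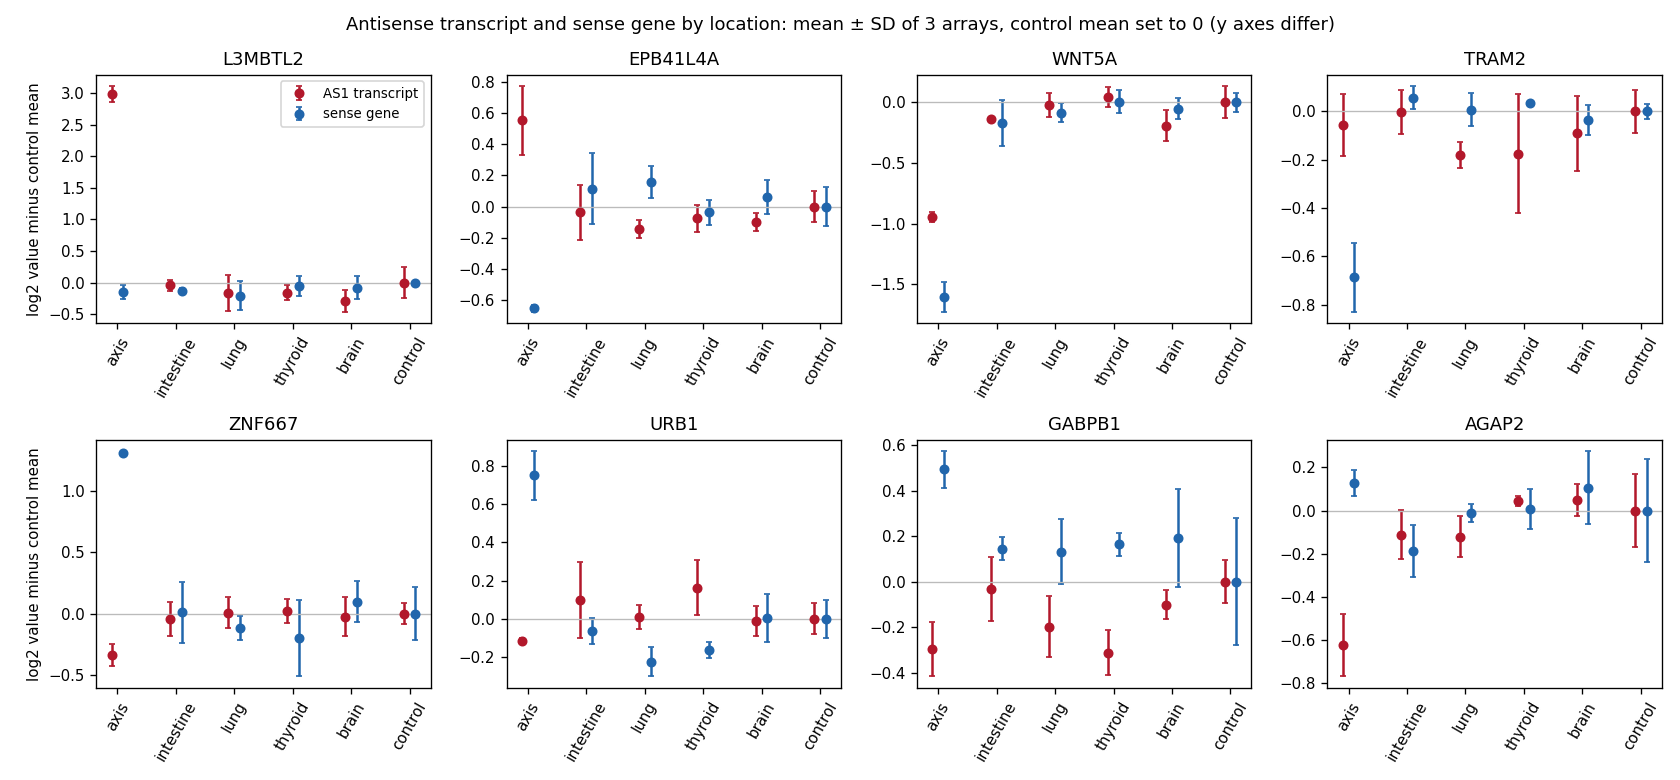
Antisense transcript and sense gene of 8 pairs by location, as the log2 value minus the control mean of the same gene (vertical axis, scales differ). Points are means of 3 arrays and bars are SD. Partners separate in the axis, by 3.13 for L3MBTL2 and -1.64 for ZNF667, while GABPB1-AS1 is as low at the thyroid location (-0.31) as in the axis (-0.30).

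The 6 transcripts named for ZNF zinc finger genes did not share a direction in the axis. ZNF213-AS1, ZNF225-AS1, ZNF22-AS1 and ZNF667-AS1 had log2 fold changes of -0.58, -0.41, -0.36 and -0.34 against control, each with an adjusted p below 0.05, and ZNF790-AS1 and ZNF566-AS1 had 0.44 and 0.25. None was called against control and 1, ZNF790-AS1, against the peripheral locations. Of their sense genes ZNF667 was called.

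The distance between starts was set beside the changes as a description. In the 27 pairs with starts within 1000 bases and a measured sense gene, the log2 fold changes of the partners, axis against control, correlated across pairs at r = 0.46 (rho = 0.38), with 19 of 27 pairs of the same sign. In the 43 pairs farther apart r was -0.0038 (rho = 0.02), with 23 of 43 of the same sign. For 21 pairs the starts were not listed, and there r was 0.43 (rho = 0.26), with 13 of 21 of the same sign. No r was taken without the most changed pairs, such as WNT5A (near) and L3MBTL2 (far). A dependence on start distance was not tested. Pairs share their arrays and are not independent replicates. Separations were called in 4 of the 27 near pairs and in 7 of the 43 far pairs, so unequal change occurred among near and among far pairs.

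The consensus half-site of p53, the tumour suppressor activated by DNA damage, was searched in the 300-base start windows on both strands. It was found in 9 of 98 windows of 84 antisense transcripts (9.18%), against 6.63% of 35116 RefSeq windows. L3MBTL2-AS1 had no match in its window. AGAP2-AS1, which was lower in the axis, had 2, GGGCTAGCCC with its first base at -149 from the start and GGGCATGTCC at -11. RUSC1-AS1, which was not called, also had 2, at -110 and 10. Of the transcripts with a match, AGAP2-AS1 was the one called in an axis comparison. Whether p53 acts on any of these transcripts, with or without a match, was not tested.

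No transcript was called at the intestine, lung, thyroid or brain location or with these 4 together, and 0.00% of all genes were called in each of those comparisons. At an unadjusted p below 0.05 in limma, 5 of the 101 transcripts differed from control at the intestine, 5 at the lung, 7 at the thyroid and 11 at the brain, against 3.23%, 3.63%, 4.02% and 3.58% of all genes and 2.80%, 4.03%, 4.21% and 2.97% of genes at or above the level threshold. With the 4 locations together 8 did, against 3.47% and 3.75%. The median log2 fold changes of the 101 transcripts were -0.05, -0.06, -0.03 and -0.04 in that order of distance. Genes at or above the level threshold had medians of -0.03, -0.05, -0.04 and -0.02, so a small negative median was not particular to the transcripts.

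By limma's statistic the lowest transcript at the intestine was EMC3-AS1 (log2 fold change -0.25 ± 0.10, SE) and the highest MID1IP1-AS1 (0.18 ± 0.09, SE). At the lung they were EMC3-AS1 (-0.28) and DDX39B-AS1 (0.26), and at the thyroid GABPB1-AS1 (-0.31) and TSC22D1-AS1 (0.39). At the brain they were ZNF790-AS1 (-0.49 ± 0.15, SE) and ZNF22-AS1 (0.27). Each had an adjusted p of 1.00 after rounding.

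L3MBTL2-AS1 averaged 4.62 ± 0.09 at the intestine, 4.495 ± 0.29 at the lung, 4.51 ± 0.12 at the thyroid, 4.37 ± 0.17 at the brain and 4.66 ± 0.24 in control cells (SD, n = 3 each). WNT5A-AS1 averaged 6.53 ± 0.01, 6.65 ± 0.10, 6.71 ± 0.08 and 6.47 ± 0.13 at the same locations and 6.67 ± 0.13 in control cells (SD, n = 3 each). Neither followed the distance from the axis in order. Over the 101 transcripts, the means of the 5 groups outside the axis spanned a median of 0.20 on the log2 scale and at most 0.49, in ZNF790-AS1.

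Whether partners varied together without high-dose irradiation was examined over the 15 arrays outside the axis, after each group mean had been subtracted. Over the 91 pairs Pearson's r ranged between -0.62 and 0.78 with a median of 0.10, and 0 pairs passed the permutation test after adjustment (7 at an unadjusted p below 0.05, smallest adjusted p = 0.176). The highest value was that of LENG8-AS1 and LENG8 (r = 0.78, permutation p = 0.00580, rho = 0.77, permutation p = 0.00455), and without the 2 arrays farthest from the median of LENG8 it was 0.73. The lowest was that of LOXL1-AS1 and LOXL1 (r = -0.62, permutation p = 0.0320, rho = -0.60, permutation p = 0.0486), at -0.50 without 2 arrays. The WNT5A pair, which fell together in the axis, had r = 0.12, and the L3MBTL2 pair had r = 0.48 (permutation p = 0.217), at 0.10 without 2 arrays.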

How the data were processed

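The deposited values are log2 intensities that the authors obtained with RMA (background correction, normalisation and probe set summary) from the affy library. The submitters' processing notes name RMA and affy without versions. The paper and the sample labels name different labelling kits, so it is not settled whether the label kept the strand apart, and where partners overlap in exons their signals may not be fully separate. Of 53617 rows, 23866 had 1 symbol, 1852 several and 27899 none, and only those with 1 symbol were tested, with the highest-mean row for the 630 genes that had several rows. The limma package (version 3.58.1, R 4.3.3) fitted all 18 arrays (lmFit, eBayes, a mean for each group), which left 12 residual degrees of freedom, and adjusted over 22392 genes. Pairs were fitted the same way on differences. Covariation used 100000 permutations within groups (Python 3.11.15). No batch is given in the sources used here. The number of arrays limits the precision. The scripts were tested on simulated data.

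Named transcripts were those called in an axis comparison, their sense genes, the 5 transcripts with the most changed sense genes, the 2 extremes of each peripheral location, and those near the level threshold. Other names were chosen after their values had been seen. The transcripts and lists were chosen with earlier results of these data known. Start regions and gene positions are from RefSeq GRCh38.p14. Alternatives covered normalisation, filters, arrays in the fit, a replicate block, variance model, array weights, thresholds, probe sets and leaving out each array.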

Additional observations from a re-analysis of the deposited data

Results flagged for a closer look

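For 8 transcripts the axis differed from the 4 peripheral locations by limma's test over all genes. The log2 fold changes were 3.15 for L3MBTL2-AS1, 0.78 for ZNF790-AS1, 0.71 for NOP14-AS1, 0.69 for MID1IP1-AS1 and 0.64 for EPB41L4A-AS1, all higher in the axis. WNT5A-AS1, HNRNPU-AS1 and AGAP2-AS1 were lower in the axis, with -0.87, -0.60 and -0.59. Of these calls, AGAP2-AS1 was lost under 7 of 24 alternatives, HNRNPU-AS1 under 5, EPB41L4A-AS1 under 2 and NOP14-AS1 under 1. The rule of inclusion favoured a high axis value for NOP14-AS1. The axis and peripheral arrays did not overlap for any of the 8. They did not in 20.1% of all genes and 37.6% of genes at or above the level threshold. Groups of 3 arrays were too small for a test of single outlying arrays.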

How the results depend on the processing

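None of the 10 transcripts called in an axis comparison reversed its direction in the axis comparisons under any alternative run. Other transcripts, the peripheral comparisons and the separations of pairs were not checked for this. L3MBTL2-AS1, MID1IP1-AS1 and WNT5A-AS1 kept their calls in both axis comparisons under the 15 (control) and 24 (peripheral) alternatives that changed the scaling, the model or the arrays. Changes of the call or level threshold are not among these and are given next. For the axis against control, with 3 transcripts higher and 5 lower, dropping the fold threshold gave 8 and 20, and testing against a 1.5-fold change itself gave 1 and 1. With a level threshold of 4.0 there were 5 higher of 160 transcripts, and with 5.0 there was 1 of 53. For the axis against the peripheral locations, with 5 higher and 3 lower, the same changes of threshold gave 11 and 18, and 1 and 1, and the level of 5.0 gave 3 higher. Median centring, quantile and cyclic loess normalisation each gave 6 lower, with LOXL2-AS1 (-0.61 to -0.62) among those gained, and the cause was not tested. Median centring of the arrays gave 2 pairs that passed the test outside the axis, of which 1 had a positive r, and the cause was not tested.

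Leaving out 1 array at a time gave 3 to 5 higher and 4 to 7 lower against control, and 4 to 5 higher and 1 to 4 lower against the peripheral locations. Pairs with unequal change numbered 4 to 5 higher and 8 to 11 lower against control, and 5 to 7 higher and 3 to 5 lower against the peripheral locations. Peripheral locations gave 0 calls throughout. Against control, AGAP2-AS1 lost its call without control replicate 1 or axis replicate 3, DLGAP1-AS1 without control replicate 3 or axis replicate 3 and with array weights (-0.53), HNRNPU-AS1 without control replicate 3 or axis replicate 2, LOXL2-AS1 without axis replicate 1 and NOP14-AS1 without axis replicate 2.

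Same-numbered arrays of different groups did not deviate together (median correlation -0.0015 over 45 pairs of arrays, 4 of 18 arrays closest to their own number). With 3 arrays in each group, this cannot exclude that same-numbered arrays were handled together. With the replicate number as a block, 3 transcripts were higher and 5 lower against control, and 5 higher and 3 lower against the peripheral locations. The median level of the transcripts was 5.03, and a change in a dim probe set is understated on this scale.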
